A study of Mus musculus with 12 samples.

Results

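The effect of 24 h of culture with KRGSF, a saponin fraction of Korean red ginseng, was measured in ovaries of 12-month-old female C57BL/6 mice, an inbred laboratory strain. The arrays of this comparison were chosen by their labels alone, and 6 of the 12 arrays of the series belong to it. Of these, 3 came from ovaries cultured with KRGSF at 10 mg/mL (12-month KRGSF) and 3 from control ovaries of the same age cultured for the same time (12-month untreated). The other 6 arrays hold the same pair of groups at 6 months of age (6-month KRGSF and 6-month untreated). They set an effect beside its value at the other age. They also enter the shared estimate of spread behind the 12-month p-values, the choice of probe sets and the other normalizations. All ovaries were kept in DMEM medium with fetal bovine serum and antibiotics. According to the labels, control cultures received dimethyl sulfoxide and treated cultures red ginseng extract, while the study's methods speak of untreated ovaries and of KRGSF. The study chose the RNA samples of each group for high purity. Whether each of the 3 samples in a group stems from its own mouse is not in the labels, so the spread that the p-values rest on could be technical.

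Ginseng saponins are steroid-like glycosides that plants make as defence compounds. In animal cells, foreign or oxidising compounds can release the transcription factor NRF2 (gene Nfe2l2) from KEAP1, the protein that otherwise sends it for degradation. NRF2 then switches on genes for quinone reduction, glutathione synthesis, thioredoxin and NADPH supply. The ovary is a mixture of granulosa, theca, luteal, stromal, vascular and immune cells around the oocytes, and its steroid hormones are made stepwise by enzymes such as CYP11A1 and CYP17A1.

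Whole ovarian tissue was read on Affymetrix Mouse Gene ST arrays, so fewer cells of a type and less RNA per cell cannot be told apart. Values are log2 signals summarised by RMA, and a log2 difference of 1 is a doubling of the signal. A gene is called higher or lower here when it differed by over 1.5-fold with an unadjusted limma p under 0.05. "Rose" and "fell" are kept for a p under 0.05 after Benjamini-Hochberg adjustment across every probe set on the array. By the call, 338 of 33793 probe sets were higher (1.00%) and 487 lower (1.44%) with KRGSF at 12 months, and 1 probe set passed the adjustment (0.00296%). With 1 probe set per named gene, 234 of 22180 genes were called higher (1.06%) and 230 lower (1.04%). Among the 12370 genes whose mean signal lay above the median of all probe sets, 193 were called higher (1.56%) and 34 lower (0.275%). At 6 months, 66 of the 22180 genes were called higher (0.298%) and 150 lower (0.676%). After another quantile normalization over the 12 arrays, the probe sets called at 12 months split into 285 higher and 265 lower, a share of higher calls of 51.8% against 41.0% on the deposited values. The array of 12-month KRGSF replicate 2 stood apart from the other 12-month arrays. It had the widest spread of values (SD 1.73) and the weakest average correlation to the rest of the series (0.958, against 0.967 to 0.974). In the whole series 6-month untreated replicate 2 had a lower correlation (0.953), with the narrowest spread of the 12 arrays (SD 1.47). The spread at 12 months also differed with treatment: SD was 1.64 on the other KRGSF arrays and 1.56 to 1.60 on the untreated ones. The array medians were 4.12 to 4.23 with KRGSF and 4.25 to 4.31 without. Of the 190 brighter genes with an established symbol that were called higher, 151 were highest on 12-month KRGSF replicate 2.

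Of all probe sets, the one that passed the adjustment was that of Mir335, a microRNA gene that lies inside Mest, an imprinted gene of the hydrolase family. MicroRNAs are short RNAs that pair with messenger RNAs, mainly through bases 2 to 8 (the seed), and lower their output. The array reads the RNA of the locus and not the mature microRNA. Both mature sequences of the locus are shown because it carried the clearest result, and that of Mir1931 because it was the higher-called microRNA gene with the smallest p. Sequences are from RefSeq (GRCm38.p6), 5′ to 3′, with the seed in capitals. The Mir335 hairpin is at chr6:30741299-30741396 and Mest spans chr6:30733506-30748466, and the Mir1931 hairpin is at chr10:93162785-93162903 inside Cdk17, a kinase gene at chr10:93160876-93251094.
mmu-miR-335-5p: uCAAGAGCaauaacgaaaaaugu
mmu-miR-335-3p: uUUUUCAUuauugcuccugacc
mmu-miR-1931: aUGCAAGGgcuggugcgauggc

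Mir335 fell with KRGSF at 12 months. Its log2 values were 3.72, 4.20 and 3.73 in the untreated ovaries and 1.87, 2.24 and 1.90 with KRGSF. Every untreated array was above every KRGSF array, with a gap wider than either group's range. The log2 fold change was -1.88 (SE 0.22), a signal 3.69-fold lower, with an adjusted p of 0.011 (limma). At 6 months the values were 2.19, 3.03 and 2.42 without and 3.47, 3.27 and 3.72 with KRGSF, a log2 fold change of 0.94 in the opposite direction. The difference of the effects at both ages was -2.82 (SE 0.31), and it passed the adjustment (limma adjusted p = 0.00516), as did 2 probe sets in all (0.00592%). These are low signals: the olfactory and vomeronasal receptor genes, taken as a reference for dim probe sets, had array medians of 2.36 to 2.82 at 12 months. The adjusted p of the 12-month effect was above 0.05 without 12-month untreated replicate 1 (0.0552) or 2 (0.0849) and without 12-month KRGSF replicate 1 (0.147) or 3 (0.134), and it was 0.46 by the methods' t-test.

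The host gene Mest lay in the opposite direction to Mir335. Its values were 5.46, 5.43 and 5.38 without KRGSF and 5.76, 6.36 and 5.68 with it, higher on every KRGSF array but below the 1.5-fold line (log2 fold change 0.51, SE 0.18). At 6 months the Mest difference was 0.48. Mir1931 had values of 3.18, 3.53 and 3.28 without KRGSF and 4.13, 4.09 and 4.73 with it, again with no overlap, and was called higher (log2 fold change 0.99, SE 0.19), with 0.44 for its host Cdk17. Of the 483 microRNA genes measured, 8 were called higher and 15 lower at 12 months. Of all genes 1.06% were called higher and 1.04% lower. The median difference of the microRNA genes was -0.14, against -0.13 for all genes dimmer than the median probe set.

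**Figure D1:**
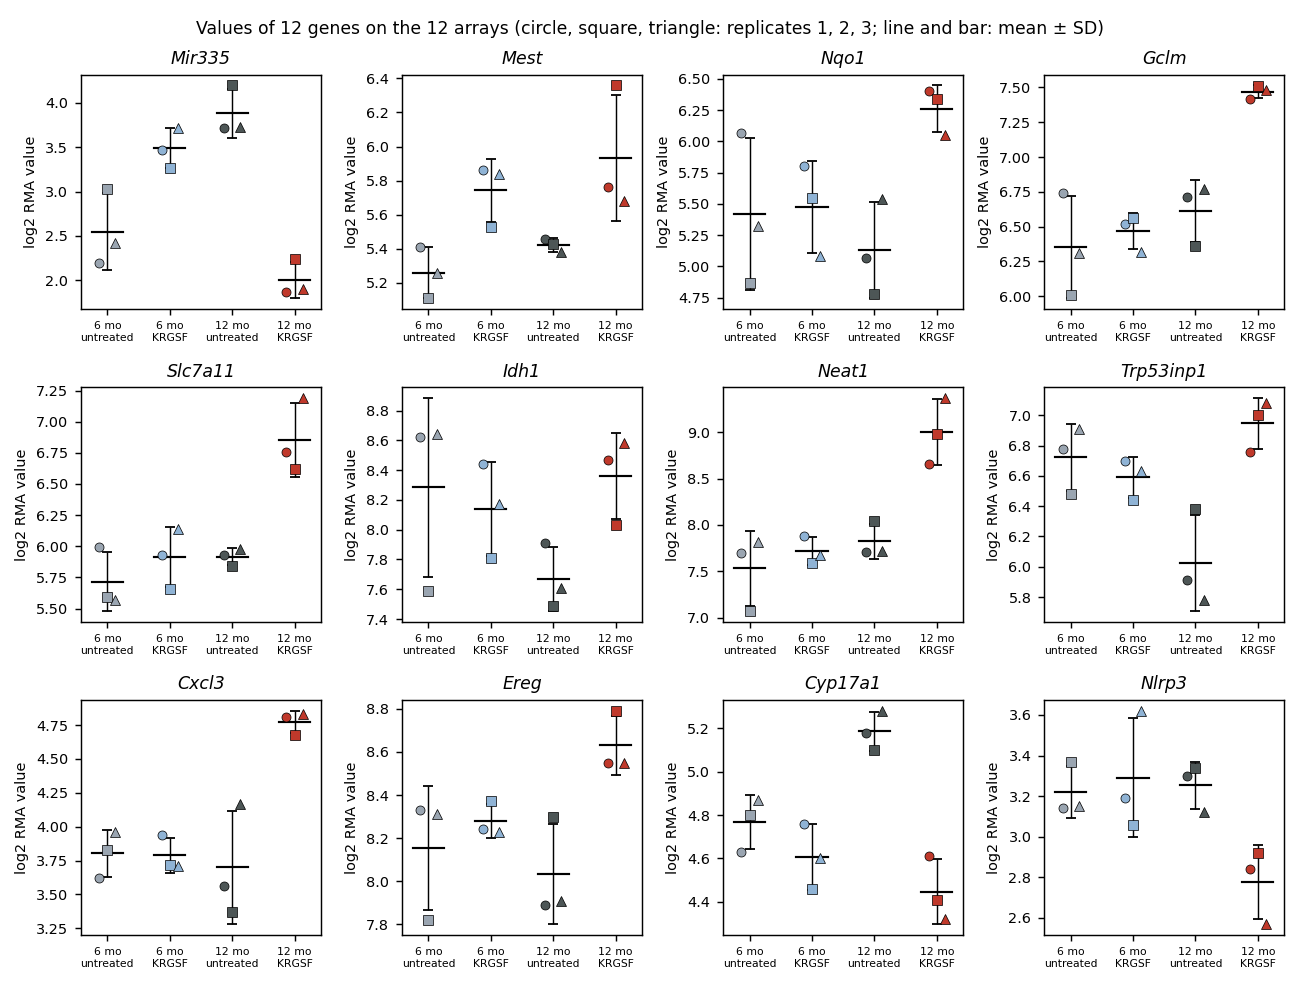
Log2 RMA values (vertical axis, scaled for each gene) of 12 genes on the 12 arrays, by age and treatment, with symbols for the replicates, a line at the mean and a bar of 1 SD. Mir335 lies at 1.87 to 2.24 in 12-month KRGSF ovaries and at 3.72 to 4.20 in the untreated ones, and Gclm at 7.42 to 7.51 against 6.36 to 6.77, while the 6-month groups of Gclm overlap.

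Genes of the NRF2 programme were among those called higher with KRGSF in the 12-month ovaries. Of 57 genes on the list, 47 were measured, 41 had a difference above 0, and 11 were called higher and 0 lower. By comparison, 46.6% of all genes and 63.1% of brighter genes were above 0. Of all genes 1.06% were called higher and 1.04% lower, and of brighter genes 1.56% and 0.275%. The list's median log2 fold change was 0.26, against -0.02 for all genes and 0.08 for brighter genes, to which 45 of the 47 belonged. It was 0.22 after quantile normalization and 0.18 after cyclic loess. Of the 47 genes, 22 were higher on every KRGSF array than on every untreated array, which held for 10.7% of all genes and 17.7% of brighter genes, while 0 were lower on every KRGSF array (8.91% of all genes and 5.22% of brighter genes). At 6 months 1 gene of the list was called higher and the median was 0.11. The interaction with age had an unadjusted p under 0.05 for 5 of the 47 genes (Nqo1, Slc7a11, Gclm, Akr1b8 and Idh1) and an adjusted p under 0.05 for 0 (limma), against 4.89% of all genes at an unadjusted p under 0.05. After quantile normalization 7 genes of the list were called, and after cyclic loess 8. Nqo1, Slc7a11, Gclm, Gsta4, Cbr3 and Akr1b8 kept their call under both and without any 1 of the 12-month arrays. Gsta3, Txnrd1, Pgd and Slc40a1 lay near the 1.5-fold line. These genes and Idh1 (0.69, SE 0.26) each lost their call under at least 2 of these settings, at values of 0.45 to 0.63. At 0.60 (without 12-month untreated replicate 2) and 0.63 (without 12-month KRGSF replicate 1), Idh1 was over 1.5-fold and lost its call by the p.

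The detoxifying enzymes held the largest difference of the list. Nqo1, the quinone reductase that is the usual readout of NRF2 activity, had values of 5.07, 4.78 and 5.54 in untreated and 6.40, 6.34 and 6.05 in KRGSF ovaries. No array of one group reached the other, and the signal was 2.19-fold higher (log2 fold change 1.13, SE 0.28, limma adjusted p = 0.433). At 6 months its difference was 0.06. Gsta4, a glutathione transferase that clears lipid aldehydes such as 4-hydroxynonenal, had values of 7.17, 7.10 and 6.87 without and 8.03, 7.47 and 7.98 with KRGSF. The groups again did not overlap (0.78, SE 0.22). The other called genes of this role were the carbonyl reductase gene Cbr3 (0.72), the aldo-keto reductase gene Akr1b8 (0.67) and the glutathione transferase gene Gsta3 (0.61). Gsta3 was the 1 gene of the list that was also called at 6 months (0.69). The 17 measured genes of this role ran from -0.09 to 1.13, and the glutathione transferase genes Gstm1 (-0.02) and Gstm3 (-0.09) lay at its low end.

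In the glutathione branch, both genes with calls feed the first steps of glutathione synthesis. Slc7a11, the cystine importer, had values of 5.93, 5.84 and 5.98 in untreated and 6.76, 6.62 and 7.19 in KRGSF ovaries (log2 fold change 0.93, SE 0.19). The lowest KRGSF array exceeded the highest untreated array by more than the untreated range. Gclm, the modifier subunit of glutamate-cysteine ligase, had 6.71, 6.36 and 6.77 against 7.42, 7.51 and 7.48 (0.86, SE 0.18), and its 3 KRGSF arrays lay close together. The catalytic subunit gene Gclc was at 0.47 and glutathione synthetase, Gss, at 0.19, both under the 1.5-fold line, and Gpx2, a glutathione peroxidase gene, at -0.29.

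Enzymes that supply NADPH had the highest median of the 6 roles, 0.61 over 4 genes. Pgd, of the pentose phosphate pathway, had values of 7.55, 7.50 and 7.62 without and 8.31, 7.94 and 8.32 with KRGSF (0.64, SE 0.16). Idh1, the cytosolic isocitrate dehydrogenase, had 7.91, 7.49 and 7.61 against 8.47, 8.03 and 8.58 (0.69, SE 0.26). The groups of Idh1 were separated by a gap smaller than either group's range, and its values at 6 months overlapped, with a difference of -0.14. The study chose Idh1 for follow-up on these arrays, so its value here is not independent evidence. Malic enzyme 1, Me1, was at 0.58 and transaldolase, Taldo1, at 0.38. Among the thioredoxin genes, Txnrd1, the cytosolic thioredoxin reductase, had 8.15, 8.11 and 8.46 against 8.97, 8.83 and 8.75 (0.61, SE 0.17), again without overlap. Srxn1, which repairs oxidised peroxiredoxins, was at 0.18. In heme and iron handling, Slc40a1, the iron exporter ferroportin, was called higher (0.64), and heme oxygenase 1, Hmox1, had 8.98, 8.86 and 8.94 against 9.58, 9.27 and 9.45, a difference of 0.51 that stayed under the 1.5-fold line.

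The regulators of the programme themselves showed no call. Nfe2l2 had values of 7.94, 7.93 and 8.39 in untreated and 8.06, 8.35 and 8.14 in KRGSF ovaries, with full overlap (0.10, SE 0.19). Keap1 was at -0.11 and the repressor gene Bach1 at 0.05. The median of the 8 regulators was 0.11 on the deposited values and turned to -0.02 and -0.05 after quantile normalization and cyclic loess. The medians of the other 5 roles stayed above 0, at 0.13 to 0.52 against 0.26 to 0.61 on the deposited values. After cyclic loess detoxifying enzymes went from 0.28 to 0.13, heme and iron genes from 0.35 to 0.18 and NADPH enzymes from 0.61 to 0.43. Glutathione genes stayed at 0.26. On the array that stood apart, 12-month KRGSF replicate 2, 2 of the 11 called genes had their highest value. Without this array and 6-month untreated replicate 2 there were 12 calls and a median of 0.31. What part the wider spread of values on the KRGSF arrays had in the NRF2 calls was not tested.

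**Figure D2:**
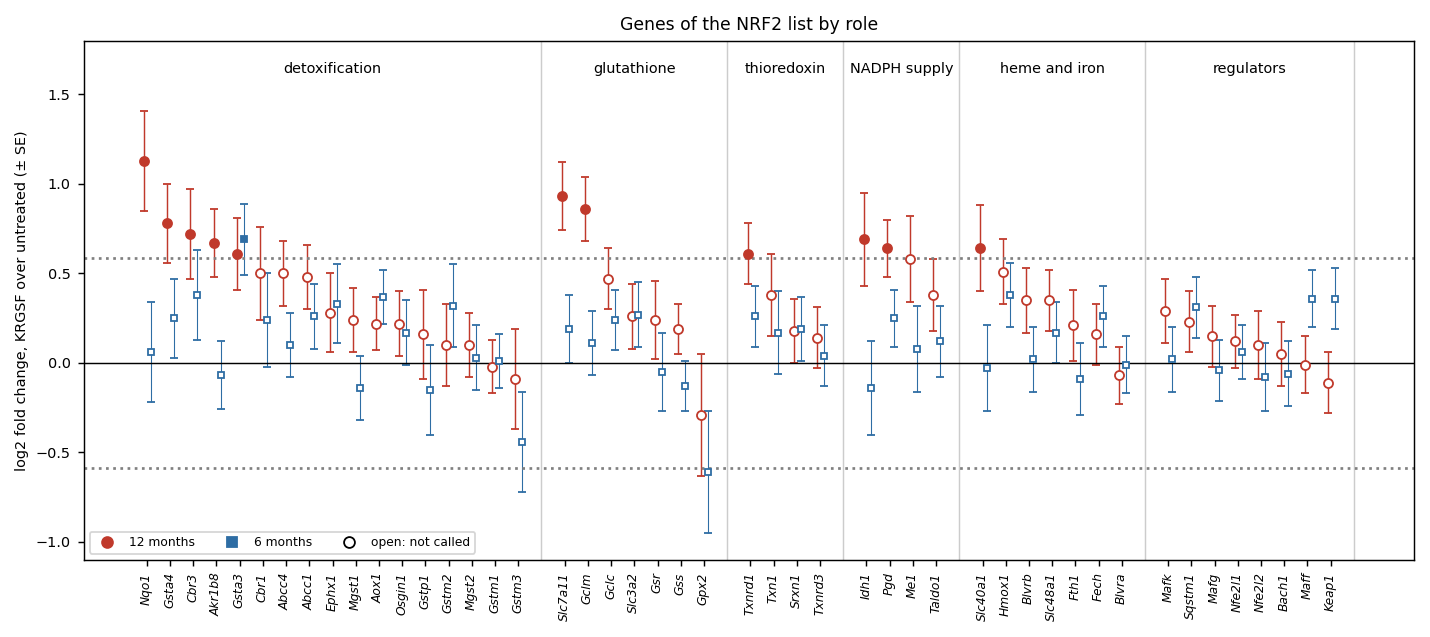
Log2 fold change of KRGSF over untreated ovaries with its SE (vertical axis) for the 47 measured genes of the NRF2 list (horizontal axis, by role), at 12 months (circles) and 6 months (squares), with filled symbols for called genes and dotted lines at 1.5-fold. The 11 called genes lie between 0.61 and 1.13 at 12 months, and 1 gene, Gsta3, is called at 6 months.

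The stretches before the start of 3 called genes are shown because NRF2 and its partners bind an antioxidant response element, searched here as TGACNNNGC or TGAGNNNGC on both strands in the 250 bases before the start. Of the 39 list genes with a RefSeq promoter, 18 held a match (46.2%), as did 4 of the 9 called ones (44.4%: Gsta3, Slc7a11, Gclm and Txnrd1) and 25.7% of all 27025 genes with a promoter. A match is a description of the letters and not a site of binding. In the Slc7a11 window, a pair of further matches to TGATGCAA on either strand, the element read by ATF4 in the amino acid response, is also in capitals. Of all genes with a promoter, 0.918% held that element. It overlaps no match of the former motif here. The windows lie at chr3:50443629-50443718 (Slc7a11, minus strand), chr3:122245392-122245461 (Gclm, plus strand) and chr10:82859081-82859150 (Txnrd1, plus strand) in GRCm38.p6, and are written 5′ to 3′ on the gene's strand with the matches in capitals. The antioxidant matches begin 97 (Slc7a11), 134 (Gclm) and 92 (Txnrd1) bases before the start.
Slc7a11: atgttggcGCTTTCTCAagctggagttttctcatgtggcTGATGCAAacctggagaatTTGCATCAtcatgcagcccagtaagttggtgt
Gclm: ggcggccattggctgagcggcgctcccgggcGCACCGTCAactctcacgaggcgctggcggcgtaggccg
Txnrd1: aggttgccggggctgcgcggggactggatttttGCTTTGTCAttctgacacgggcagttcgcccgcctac

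Slc7a11 is also a target of ATF4, the factor of the amino acid and integrated stress response. The list of ATF4 targets does not hold Slc7a11, so its count leaves out this called gene. Of the 25 other ATF4 targets measured, 0 were called, with a highest value of 0.41. Their median was 0.10 at 12 months and 0.16 at 6 months, and the 12-month median was 0.00 to 0.01 under the other normalizations. Of 23 genes of antioxidant enzymes, which break down superoxide and peroxides or repair oxidised proteins, 16 were above 0, and 9 were higher and 1 was lower on every KRGSF array. All 23 were brighter genes. Of all brighter genes 63.1% were above 0, and 17.7% were higher and 5.22% lower on every KRGSF array. The antioxidant list had a median of 0.17 (0.07 to 0.09 under the other normalizations, and 0.10 without 12-month KRGSF replicate 2). The glutaredoxin gene Glrx3 was the one called (0.59), and it stood at 0.32 without 12-month untreated replicate 2. Catalase, Cat, had values of 8.30, 8.12 and 8.08 against 8.87, 8.44 and 8.69 with KRGSF (0.50, SE 0.18), which did not overlap but stayed under 1.5-fold. The differences were 0.28 for Sod2, the mitochondrial superoxide dismutase gene, -0.18 for the glutathione peroxidase gene Gpx1 and 0.24 for the glutathione reductase gene Gsr, with overlapping groups for all of them.

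Genes of the NADPH oxidases, which make superoxide and peroxide, had a median of -0.24 over 13 measured members, of which 3 were above 0. Duox1, a dual oxidase gene, was called lower (4.35, 4.78 and 4.11 against 4.01, 3.45 and 3.69, -0.70), and stood at -0.51 without 12-month untreated replicate 2, at -0.56 without 12-month KRGSF replicate 2 and at -0.58 after quantile normalization, none of them called. Duox2 was at -0.57 and Nox1 at -0.55, under the 1.5-fold line. Cybb, which encodes NOX2, was at 0.02 (SE 0.17). Most of these probe sets were dim, 4 of the 13 lying above the median probe set, and dim genes as a whole had a median of -0.13. Oxidoreductases that act on alcohol groups, a class the study singled out on these arrays, had 3 calls among 38 measured genes (Cbr3, Idh1 and Pgd, all on the NRF2 list). Called higher were 1.06% of all genes and 1.56% of brighter genes, to which 32 of the 38 belonged. The median of the class was 0.11, which was 0.03 to 0.04 under the other normalizations.

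Inflammasome and interleukin-1 genes showed no call among 16 measured members (median -0.01). Nlrp3, the sensor of the inflammasome, had values of 3.30, 3.34 and 3.12 without and 2.84, 2.92 and 2.57 with KRGSF, lower on every treated array (-0.48, SE 0.17) but under 1.5-fold. Pycard, its adaptor, also did not overlap (5.75, 5.79 and 5.74 against 5.47, 5.24 and 5.54, -0.34). Il1b was at -0.20 and Casp1 at 0.26, with overlapping arrays. Of 26 inflammatory genes under NF-kB control, the chemokine gene Cxcl3 was the one called: it had 3.56, 3.37 and 4.17 against 4.81, 4.68 and 4.83 (1.07, SE 0.19), 2.11-fold higher and without overlap, and -0.02 at 6 months. All its 12-month values were dim, below 4.86, the 95th percentile of the mean signals of receptor genes. The prostaglandin synthase gene Ptgs2 (0.39) and the nitric oxide synthase gene Nos2 (0.25) had overlapping groups. Interferon response genes had 0 calls among 21, with a median of 0.02 that was 0.27 without 12-month KRGSF replicate 1 and -0.06 without replicate 2.

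**Figure D3:**
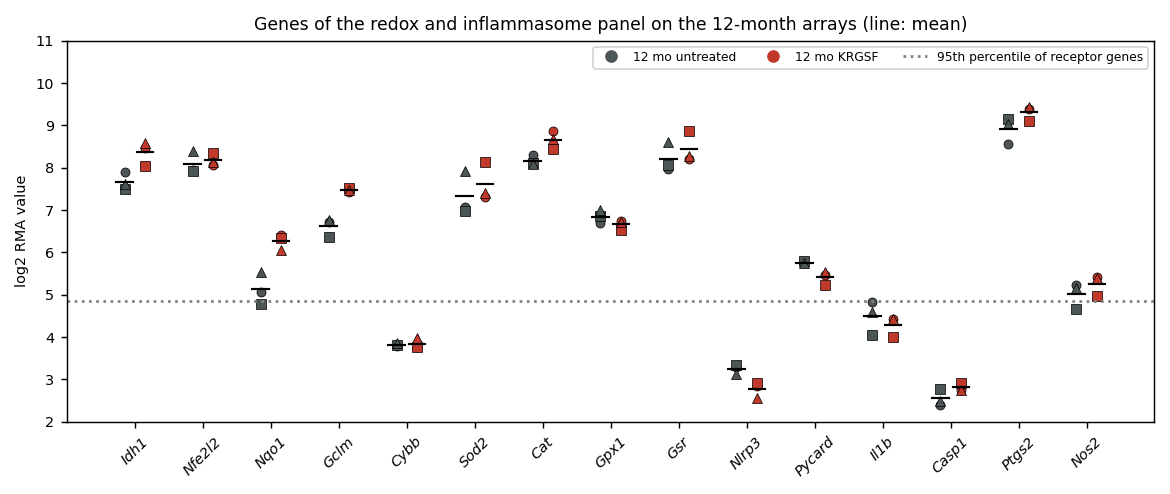
Log2 RMA values (vertical axis) on the 12-month arrays of 15 genes of redox control and inflammation that the study also assayed by qRT-PCR (horizontal axis), for untreated and KRGSF ovaries, with symbols for the replicates, a line at each mean and a dotted line at 4.86, the 95th percentile of the mean signals of receptor genes. Idh1, Nqo1, Gclm and Cat are higher and Nlrp3 and Pycard lower on every KRGSF array, and Nlrp3, Casp1, Cybb and Il1b lie below the dotted line on every array. By qRT-PCR the study reported Idh1 as increased and the other genes as reduced by KRGSF. Nqo1, Gclm and Cat thus lie the other way on the arrays, and Idh1, Nlrp3 and Pycard the same way.

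Outside the redox genes, the largest difference among brighter genes with an established symbol was that of Neat1, a long noncoding RNA that builds nuclear paraspeckles and is needed for the corpus luteum in mice. Its values were 7.71, 8.04 and 7.72 in untreated and 8.66, 8.98 and 9.37 in KRGSF ovaries, well separated (log2 fold change 1.18, SE 0.22, 2.27-fold, limma adjusted p = 0.387). At 6 months the difference was 0.18. Of the other long noncoding RNAs, Tug1 (0.56) and Malat1 (0.39) were higher with no overlap but not called, and the list had 1 call among 19. Trp53inp1, a p53-induced stress gene, had 5.91, 6.38 and 5.78 in untreated ovaries against 6.76 to 7.08 on the 3 KRGSF arrays (0.92, SE 0.18), also without overlap, and -0.13 at 6 months. The difference between the ages was 1.00 for Neat1 and 1.05 for Trp53inp1, each short of the adjustment (limma adjusted p = 0.862 for both). Trp53inp1 was the 1 call among 19 p53 targets. The ubiquitin ligase gene Mdm2 was at 0.43, and the cell cycle inhibitor gene Cdkn1a at 0.03.

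The remaining genes among the 12 highest covered several functions. Xpot, the exporter of transfer RNA from the nucleus (0.89), and the zinc finger gene Zfp617 (0.93) had KRGSF arrays close together, at 6.27, 6.16 and 6.57 for Xpot and at 5.87, 6.08 and 5.77 for Zfp617. For 5 genes, 12-month KRGSF replicate 2 lay far above the other treated arrays. These were Eloc (5.75, 7.23 and 6.31 with KRGSF), which encodes elongin C of ubiquitin ligases, Stxbp3 (5.50, 6.72 and 5.97), a vesicle fusion gene, Rbm12b2 (5.33, 6.40 and 5.37), an RNA-binding protein gene, Ppwd1 (4.85, 5.77 and 4.83), a prolyl isomerase gene, and Ccnc (4.96, 5.81 and 4.76), the cyclin of the Mediator kinase module. Without that array Eloc moved from 1.01 to 0.61, Rbm12b2 from 0.96 to 0.61, Ccnc from 0.91 to 0.60, Stxbp3 from 0.99 to 0.66 and Ppwd1 from 0.95 to 0.64. The ribosomal protein gene Rps13 was at 0.92 on all arrays, and all 12 genes were still called under the 9 settings given to them (quantile normalization, cyclic loess, each of the 6 arrays left out, and both arrays that stood apart left out). Rps13 has near-identical copies in the genome, so its probes may read more than 1 locus. All 12 genes were higher on every KRGSF array than on every untreated one, which the choice of the largest differences favours.

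The 12 lowest brighter genes had smaller differences and more overlap, with 6 of 12 separating the groups. They came from 13 genes that met the naming rule, against 190 for the 12 highest, which favours this contrast. Of all brighter genes 5.22% separated the groups in this direction. The choice of called genes favours separation, so the 2 shares cannot be compared. Cyp17a1, the theca cell enzyme that turns progestins into androgens, had values of 5.18, 5.10 and 5.28 in untreated and 4.61, 4.41 and 4.32 in KRGSF ovaries. Each group was tight, and the gap between them exceeded both ranges (-0.74, SE 0.15, limma adjusted p = 0.387). At 6 months its difference was -0.16. C1ql1, a secreted C1q-like protein gene, had 5.03, 4.96 and 4.54 against 3.73, 3.95 and 4.33 (-0.84, SE 0.26) and no overlap, with 0.34 at 6 months. The 12-month KRGSF values of Cyp17a1 and C1ql1 lay below 4.86, the 95th percentile of the mean signals of receptor genes. Fthl17f, a ferritin-like gene (-0.63), Ccn6, a matricellular protein gene (-0.61), the keratin-associated protein gene Krtap5-4 (-0.67) and the intramembrane protease gene Sppl2c (-0.66) completed the genes without overlap. Under the same 9 settings Cyp17a1 and C1ql1 kept their call, and these 4 lost it in at least 3 of them. The salivary protein gene Dcpp3 (-0.67) and the annexin gene Anxa8 (-0.61) had overlapping groups. Without 12-month untreated replicate 2 they stood at -0.47 and -0.52, neither of them called. Leaving out this array moved 4 other genes by more. Apol7e, an apolipoprotein L gene, went from -0.77 to -0.51, and Bhmt, a homocysteine methyltransferase gene, from -0.71 to -0.35. Adamdec1, a metalloprotease gene, went from -0.69 to -0.46, and Sh2d1b2, an adaptor gene of natural killer cells, from -0.62 to -0.23. Without 12-month KRGSF replicate 3, Apol7e was at -0.44 and Sppl2c at -0.40. None of these 6 values was called. Of the 24 genes, the lowest adjusted p was 0.387 (limma), and none passed the adjustment for the interaction with age (limma).

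**Figure D4:**
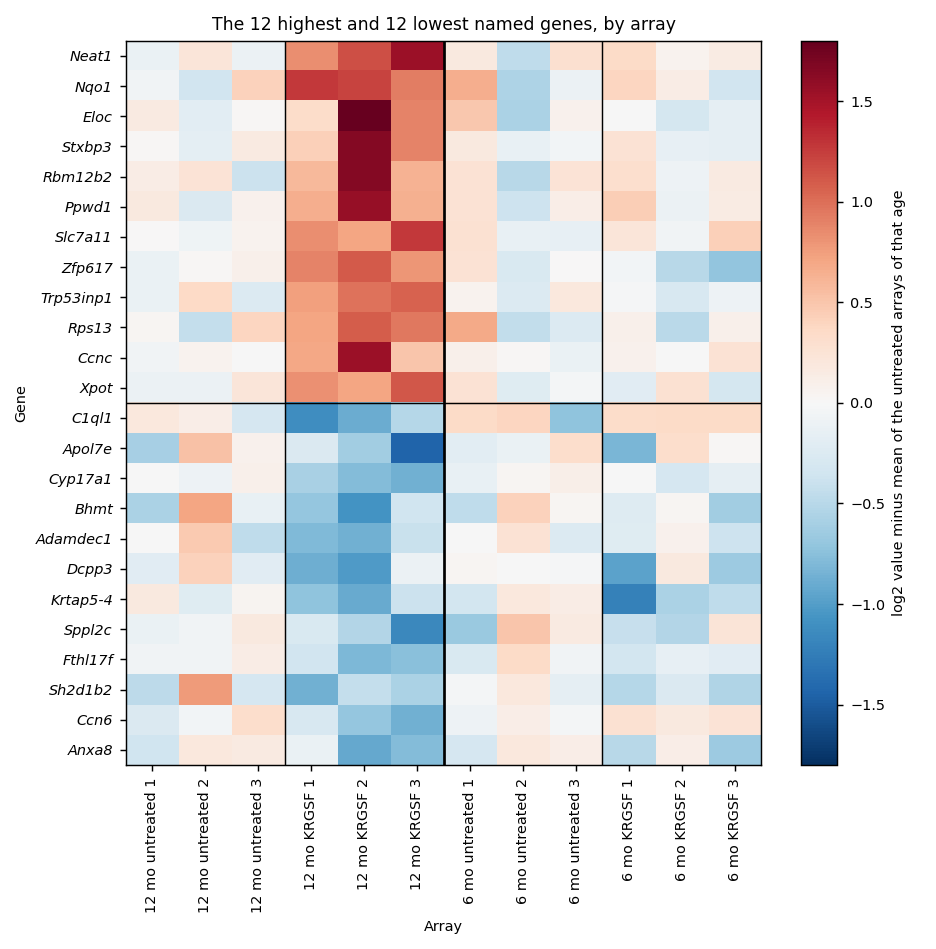
Log2 value minus the mean of the untreated arrays of the same age (colour) for the 12 highest and the 12 lowest of the brighter genes (rows) on the 12 arrays (columns, by age, treatment and replicate). The 12 highest genes are above the untreated mean on all 3 12-month KRGSF arrays, and 7 of them are highest on replicate 2.

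In the steroid pathway Cyp17a1 stood alone: of 17 genes measured, 11 were above 0 and it was the 1 call. Star, which carries cholesterol into mitochondria, was at 0.12 (SE 0.18). Cyp11a1, which makes the first steroid, had 8.01, 7.97 and 7.69 without and 8.53, 7.12 and 8.71 with KRGSF, the treated arrays lying on both sides of the untreated ones. The same array was low for the luteal genes Sfrp4 (6.47, 4.50 and 7.08 with KRGSF) and Akr1c18 (7.38, 3.69 and 6.71), so that the median of the 6 luteal markers was 0.11 with this array and 0.58 without it (0.29 without 12-month untreated replicate 2, -0.03 without 12-month KRGSF replicate 3, and -0.04 after cyclic loess). The part of this shift in other results was not tested. Ovulation genes, switched on in follicles by luteinizing hormone, had a median of 0.29 over 17 genes, 13 of them above 0. It was 0.15 without 12-month KRGSF replicate 3 and 0.18 under both other normalizations. Ereg, a growth factor of the preovulatory follicle, was called higher (7.89, 8.30 and 7.91 against 8.55, 8.79 and 8.55, 0.60, SE 0.17), and another such factor gene, Btc, was at 0.55. The Ereg value lies at the threshold, and it was 0.53 after quantile normalization and 0.43 after cyclic loess. Synthesis of cholesterol showed 0 calls among 16 genes (median 0.07, and -0.02 after cyclic loess).

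Few chaperone genes were called. All 16 heat shock genes measured were above 0, as were 63.1% of brighter genes and 46.6% of all genes (median 0.24, with 0.20 at 6 months), and Chordc1, a co-chaperone of HSP90, was the one called (0.74, and 0.53 without 12-month KRGSF replicate 2). Hspd1, the mitochondrial chaperonin, had 6.27, 6.32 and 6.43 against 6.73, 6.78 and 6.83 (0.44), tight in both groups. Of 18 chaperones of the endoplasmic reticulum 17 were above 0 and 0 were called (median 0.23), with Dnajb9 (0.57) and Dnajb11 (0.53) the highest. The medians of both lists were 0.06 to 0.13 under the other normalizations. Among structural matrix genes, the proteoglycan gene Bgn was called lower (10.19, 10.22 and 10.15 against 9.78, 9.10 and 9.92, -0.59), but it was at -0.34 without 12-month KRGSF replicate 2.

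The labelled tissue was checked by its markers. Granulosa genes such as Inha, Amhr2 and Gja1 and the steroidogenic genes Star and Cyp11a1 had signals of 5.85 to 10.07 on the 12-month arrays, above the 95th percentile of the receptor genes (4.86), whereas the granulosa genes Amh and Fshr (3.07 to 4.56) and the oocyte genes Figla, Ddx4 and Zp1 (2.15 to 3.60) stayed below it. These oocyte genes do not stand for their list: of 19 measured, 8 had a mean signal above the median probe set. Granulosa markers had 0 calls among 9 genes (median 0.08, and -0.02 to -0.01 under the other normalizations). Oocyte markers had a median of -0.20 over 19 genes, 4 of them above 0, and 0 calls (-0.05 without 12-month untreated replicate 2, and -0.09 to -0.08 under the other normalizations). Endothelial markers had a median of 0.21 over 12 genes (0.12 to 0.31 without 1 array, and 0.10 under the other normalizations), with 1 call, the vascular growth factor receptor gene Flt1 (0.61, with 0.45 without 12-month KRGSF replicate 3, and 0.53 at 6 months). Cdh5 was at 0.57, Plvap at 0.50 and Pecam1 at 0.35, while Kdr was at 0.08 and Tek at -0.07. The medians were -0.10 for macrophage, -0.21 for lymphocyte and -0.14 for neutrophil markers, each with 0 calls. Without 1 array they ranged from -0.20 to 0.04 (above 0 without 12-month untreated replicate 3), from -0.22 to -0.17 and from -0.27 to -0.11. Above the median probe set lay 6 of 11 macrophage, 2 of 10 lymphocyte and 3 of 11 neutrophil genes. Genes dimmer than that probe set had a median of -0.13 as a whole. What part these marker differences had in the other results was not tested.

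**Figure D5:**
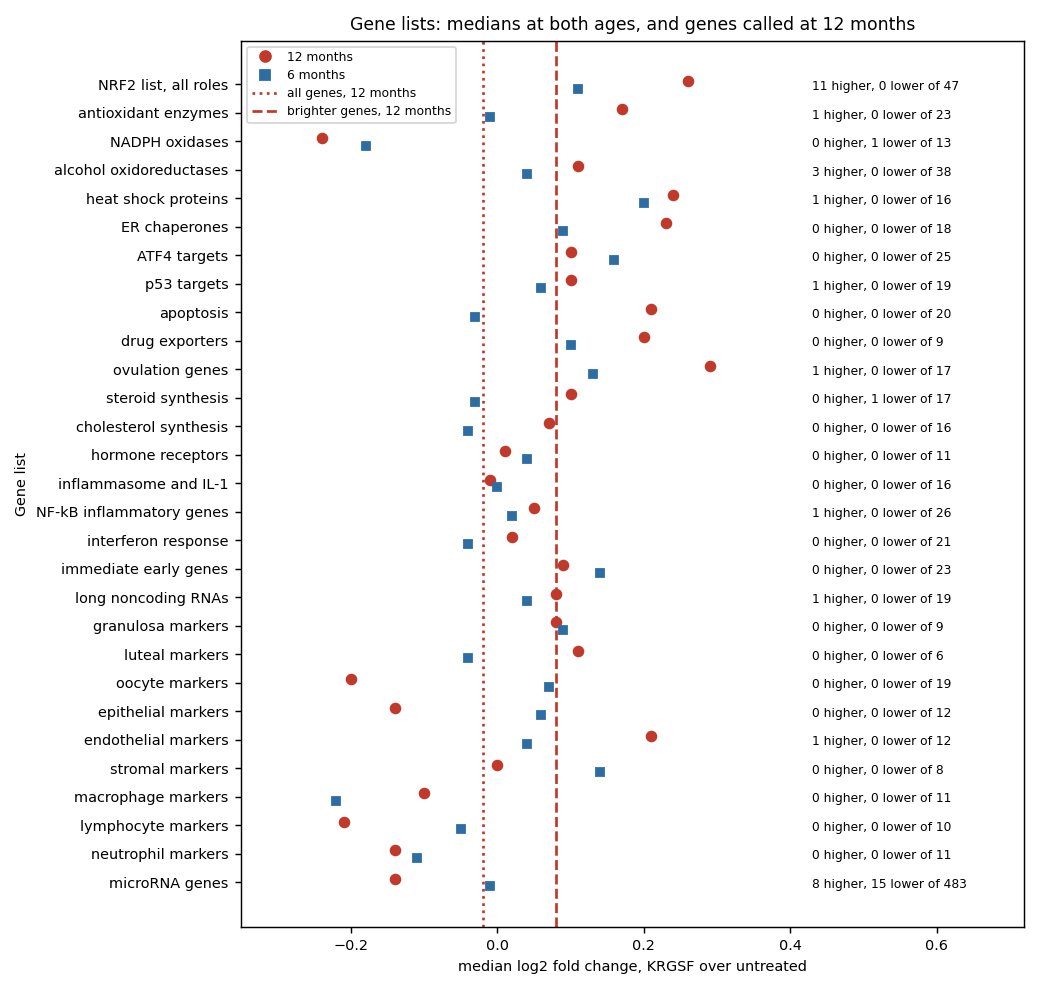
Median log2 fold change of KRGSF over untreated ovaries (horizontal axis) for 29 gene lists (vertical axis) at 12 months (circles) and 6 months (squares), with the count of genes called at 12 months at the right and vertical lines at the 12-month medians of all genes (-0.02) and of brighter genes (0.08). The NRF2 list has 11 of 47 genes called higher, and no other list drawn, apart from the 483 microRNA genes, has more than 3 calls.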

How the data were processed

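The deposited log2 values of 33793 probe sets on Affymetrix Mouse Gene ST arrays were used. The authors made them by RMA in Affymetrix Expression Console 1.4, per the submitters' processing notes; RMA corrects background, equalises the arrays and summarises probes. Detection calls were not used here. Precision is limited by having 3 arrays in a group. Platform annotation gave 23521 probe sets 1 gene symbol, 1820 several and 8452 none (probe sets with several were left unnamed). Each of the 22180 genes was represented by its brightest probe set over the 12 arrays.

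Contrasts were fitted with limma 3.58.1 in R 4.3.3 (lmFit and eBayes, 1 mean per group, all 12 arrays, 8 residual df). Adjustment was by Benjamini-Hochberg over all probe sets. The fit was tested on simulated data. Named genes were those past the adjustment, the 12 highest and 12 lowest called genes with a mean above the median probe set (4.281) and an established symbol, without microRNA, small nucleolar and receptor genes, called list members and those that define a list, and genes the study assayed by qRT-PCR. Other genes were chosen after their values were seen. Comparisons, lists and the naming rule were chosen with earlier results of these data known. Alternatives were another normalization, a replicate block, the methods' t-test, array weights, a robust variance model, the compared groups alone, filters, a 2-fold threshold and leaving out each array.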

Additional observations from a re-analysis of the deposited data

Results flagged for a closer look

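For 2 genes the effect of KRGSF differed between 12 and 6 months by a test of the difference itself (limma interaction). Mir335 fell at 12 months (-1.88) and was higher with KRGSF at 6 months (0.94), a difference of -2.82 (adjusted p = 0.00516, and at most 0.0362 when any 1 array was left out). Olfr706, an odorant receptor gene, had values of 2.77, 2.80 and 2.48 without and 3.64, 3.58 and 3.52 with KRGSF at 12 months (0.90), and 4.06, 4.82 and 4.59 against 3.05, 3.21 and 3.60 at 6 months (-1.21). The difference was 2.11 (adjusted p = 0.0341), and its adjusted p was above 0.05 in 10 of the 12 fits that left out 1 array, up to 0.194. Neither gene has a mean signal above the median probe set.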

How the results depend on the processing

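Against 338 probe sets called higher and 487 lower at 12 months, the methods' t-test gave 194 and 222, a 2-fold threshold 20 and 16, and leaving out 1 array 266 to 689 and 325 to 915 (514 and 794 without 12-month untreated replicate 3, 689 and 915 without 12-month KRGSF replicate 1, and 540 higher without 12-month KRGSF replicate 3). Lower calls were 265 after quantile normalization, 116 among brighter probe sets and 236 with 1 probe set per gene. The 1 probe set past the adjustment became 0 with the t-test and among brighter probe sets, which leave out Mir335, and 0 to 2 without 1 array. At 6 months the counts of 153 and 314 became 60 and 96 among brighter probe sets, 70 and 163 with 1 probe set per gene, and 152 to 330 and 213 to 799 without 1 array (325 and 799 without 6-month untreated replicate 1, 237 and 497 without its replicate 3, 330 and 631 without 6-month KRGSF replicate 2, and 664 lower without its replicate 3); 0 probe sets passed the adjustment there, with 1765 at an unadjusted p under 0.05 (limma). The interaction count of 2 became 0 among brighter probe sets and 1 to 2 without 1 array. The NRF2 calls went from 11 to 7 after quantile normalization and were 8 to 12 without 1 array. Leaving out both arrays that stood apart, chosen after seeing the data, gave 233 higher calls at 6 months and 1 for the interaction. Of 42 called genes named here, 27 were still called after quantile normalization, 33 after cyclic loess and 29 to 35 without 1 array. None of the 42 changed sign under these settings.

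Replicate numbers did not pair the samples: deviations of same-numbered arrays correlated at 0.10, -0.04 and -0.09 at 12 months. With the replicate number as a block, calls were 353 higher and 529 lower at 12 months and 166 and 430 at 6 months, 0 passed the adjustment at 12 months (Mir335 adjusted p = 0.054, limma), 2 passed it for the interaction, and the NRF2 list kept a count of 11 calls.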

Other observations

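A few further gene groups were looked at after the values had been seen, so their counts are descriptions without a test. Of 34 genes of proteasome subunits, 30 were above 0 with KRGSF at 12 months (63.1% of brighter genes were), with a median log2 fold change of 0.29 (0.09 at 6 months), and Psma1 (0.81), Psmc6 (0.64), Psma3 (0.59) and Psmd1 (0.59) were called higher. The median of the group's values was 6.20, 6.11 and 6.26 on the untreated and 6.54, 6.48 and 6.42 on the KRGSF arrays, and 12 of the 34 genes were highest on 12-month KRGSF replicate 2. Of 9 genes of the cytosolic chaperonin that folds actin and tubulin, 8 were above 0 (median 0.34), with Cct6a called (0.72). Nuclear transport receptors had a median of 0.26 over 24 genes, with Xpot (0.89) and the export receptor gene Xpo1 (0.70) called, but 20 of the 24 were highest on 12-month KRGSF replicate 2. Beside these counts, 1.06% of all genes and 1.56% of brighter genes were called higher.

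Of 17 further genes of vascular endothelium, 12 were above 0 with a median of 0.14. The median of their values was 5.02, 5.01 and 4.80 on the untreated and 4.97, 4.96 and 5.42 on the KRGSF arrays, so that replicate 3 alone was above the untreated arrays. Of these genes, 5 were called higher: Esm1 (0.76), a proteoglycan of sprouting vessels, Adgrl4 (0.72), the endothelin receptor gene Ednrb (0.67), the adhesion receptor gene Adgrf5 (0.59) and Calcrl (0.59), a receptor subunit for adrenomedullin. Of all genes 1.06% were called higher, and of brighter genes 1.56%. The fatty acid carrier gene Fabp4, found in fat cells and capillaries, had values of 5.26, 5.60 and 5.48 without and 6.53, 6.33 and 6.76 with KRGSF, which did not overlap (1.10, SE 0.56), but its spread in the fit was wide and it was not called.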
